A study of Mus musculus with 15 samples.

Results

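The comparison set mice with spinal cord injury (SCI) against naïve and sham mice together, and asked which transcripts of skin-projecting sensory neurons differed from both kinds of control in the same direction. All 15 libraries of the series entered, 5 from SCI mice and 10 from control mice, 5 of them sham and 5 naïve. Of 54108 gene symbols, the 16000 with a mean of at least 1 over the 15 libraries were tested. At an unadjusted p under 0.05, 724 genes differed from naïve mice (4.52%) and 623 from sham mice (3.89%), contrasts that share the SCI libraries, and 71 genes differed from both with the same sign. In each contrast a fraction of about 0.05 of genes would fall under that p by chance alone, and both shares were smaller.

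The mice were female C57BL/6J of 8 to 12 weeks. SCI was a clip compression of the cord at vertebra T10, sham mice had the laminectomy alone, and naïve mice had no surgery. SCI and sham mice were caged singly and naïve mice in groups, so SCI against naïve also compares housing and surgery, while SCI against sham does not. A fluorescent lectin injected into hairy hindpaw skin marked the neurons that reach it, and sorting of ganglia L2 to L6, which lie below the injury, gave about 3000 marked cells from each mouse 4 days after surgery. Each mouse gave 1 library. The values, called CPM here, are reads per gene over a library-wide factor, with no correction for gene length, so levels are compared between mice and not between genes. Recovered reads per library were 3000636 to 4385542 in SCI mice, 2568656 to 7389487 in sham mice and 1321632 to 7465583 in naïve mice, so the depth of the controls spans that of the SCI mice. The first principal component held 47.5% of the variance and split the controls within their groups. The shallow libraries naïve 1, naïve 4 and sham 2 lay at -41.9, -41.9 and -23.3 on it. The deepest 5 libraries, sham 1, 3, 4 and 5 and naïve 5, lay at 19.2 to 25.5, and the SCI mice between, at -6.48 to 9.17. Naïve 2 and naïve 3 lay among the SCI mice, at -3.09 and -3.11. Depth did not set this order alone, as naïve 3 had fewer reads than sham 2, with 2532675 against 2568656. The part of depth in the differences was not tested beyond the fits with a depth term and without shallow libraries. Nociceptor markers were high in all groups, summing to 4371 to 5376 CPM in SCI mice, 3846 to 5758 in sham and 4054 to 7383 in naïve mice. Markers of other cells were present too. In SCI mice they summed to 3477 to 4178 CPM for satellite glia, 1850 to 2090 for Schwann cells and 1017 to 1627 for mural cells and fibroblasts. The last summed to 916 to 1480 in sham and 838 to 2236 in naïve mice, so not all reads need come from neurons. The satellite glia sum includes Fasn and Hmgcs1, at 924 and 348 of 4178 CPM in SCI 1. Fasn is also on the list of fatty acid synthesis genes, and the study names it among genes particular to its sorted cells. The sum is therefore no measure of glia alone.

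Dorsal root ganglion neurons carry touch, itch, heat and pain from skin to the cord. Cord injury leaves the peripheral axon of these lumbar neurons intact, while some of their central branches run in the cord toward the lesion. After damage to a peripheral axon such neurons switch on a growth program led by the transcription factor Atf3 and lower many ion channels. They also release brain-derived neurotrophic factor (Bdnf) onto dorsal horn neurons, where it raises excitability. In bulk libraries such as these, fewer cells of a type and less RNA per cell cannot be told apart.

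In SCI mice the transcripts of Bdnf, of the orphan receptor Gpr149, of the stress gene Gadd45g and of the neuropeptide Y receptor Npy1r had higher means than in both control groups. Those of the kinase-associated protein Mob3b, of the metalloreductase Steap2, of the ERK feedback inhibitors Spry4 and Dusp5 and of the potassium channel subunits Kcnab1, Kcng3 and Kcnk1 had lower means than in both. These differences were modest. After adjustment over the 16000 genes, 0 passed in limma (0% of the genes, smallest adjusted p = 0.9999). At an unadjusted p under 0.05 there were 362 genes (2.26%), 141 higher in SCI (0.881%) and 221 lower (1.38%), and by exact permutation of the group names 455 genes (2.84%), all with an adjusted p of 1. A fraction of about 0.05 of genes would fall under that p by chance alone, and both the 2.26% and the 2.84% were smaller. On recovered reads edgeR passed 0 genes, with 585 at an unadjusted p under 0.05, and DESeq2 passed 3, with 556. The 3 were Skor2, Mob3b and Steap2, all lower in SCI (DESeq2, adjusted p = 0.0121, 0.0259 and 0.0352), and edgeR gave them adjusted p-values of 0.973, 0.853 and 0.973.

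Of the 71 genes that differed from both groups, 17 were higher in SCI mice (0.106% of the genes tested) and 54 lower (0.338%), together 0.444%. With the larger of the 2 p-values of each gene adjusted over all genes, the smallest adjusted p from limma was 1, so the 71 are a list of leading genes and none passed. SCI lay above both group means in 3701 genes (23.1%) and below both in 3050 (19.1%). The values of the 71 chose them and are given as a description. The 17 higher genes had log2 differences of 0.24 to 0.86 from the pooled controls (median 0.41), and 16 of them are protein coding. The 54 lower genes had differences of -1.68 to -0.22 (median -0.62), with 43 protein coding among the 53 found in the annotation, beside 4 provisional transcript models, 3 antisense RNAs and 1 each of a lincRNA, a sense intronic RNA and a pseudogene. Means reached 138 CPM in the higher and 203 CPM in the lower genes, and 3 higher and 10 lower genes had a mean under 3 CPM. The median difference over all genes tested was 0.02. At the edge of the list, Gm47640 had a larger p of 0.0497 and Piezo2, just outside it, 0.0504.

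A single library weighed on this list. SCI 3 had the lowest of the 5 SCI values for 26 of the 54 lower genes, and the highest for 10 of the 17 higher genes. Without SCI 3 the list held 33 genes, of which 25 were among the 71. Without sham 5 it held 37, all among the 71. Without naïve 5 it held 64 genes, 33 higher and 31 lower. Without the 2 shallowest libraries, naïve 1 and naïve 4, a choice made after seeing the data, it held 187, of which 46 were among the 71.

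The promoters below are shown because their genes stand for the ligand, receptor, phosphatase and channel described next, and because each holds letters that match the motif of a factor known in sensory neurons. The letters are 300 bases of RefSeq (GRCm38.p6), 250 before and 50 after a start of transcription, with the matched motif in capitals. In Bdnf and Dusp5 it is TGACGT, the core bound by CREB, which drives Bdnf in active neurons. In Npy1r it is TGANTCA, bound by Fos and Jun pairs, and in Kcng3 it is GCGNGGGCG, bound by Egr factors, at 3 places.
Bdnf (chr2:109692186-109692485, strand plus): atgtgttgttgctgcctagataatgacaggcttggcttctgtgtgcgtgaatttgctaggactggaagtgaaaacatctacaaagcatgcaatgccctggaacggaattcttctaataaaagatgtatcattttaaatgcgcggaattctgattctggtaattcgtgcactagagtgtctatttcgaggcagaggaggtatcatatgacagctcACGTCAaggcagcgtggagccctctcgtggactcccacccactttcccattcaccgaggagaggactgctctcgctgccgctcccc
Npy1r (chr8:66697172-66697471, strand plus): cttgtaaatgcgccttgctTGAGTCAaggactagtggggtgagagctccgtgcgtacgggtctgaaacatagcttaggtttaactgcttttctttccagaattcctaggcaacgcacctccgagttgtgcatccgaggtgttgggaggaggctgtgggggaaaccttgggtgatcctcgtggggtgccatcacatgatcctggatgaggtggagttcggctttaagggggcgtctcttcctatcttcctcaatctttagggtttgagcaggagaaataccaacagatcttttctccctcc
Dusp5 (chr19:53528895-53529194, strand plus): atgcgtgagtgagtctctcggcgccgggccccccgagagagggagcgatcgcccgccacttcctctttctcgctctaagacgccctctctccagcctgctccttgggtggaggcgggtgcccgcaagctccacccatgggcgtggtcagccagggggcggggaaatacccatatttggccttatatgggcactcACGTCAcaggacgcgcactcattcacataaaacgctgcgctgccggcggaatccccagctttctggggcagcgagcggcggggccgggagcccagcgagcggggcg
Kcng3 (chr17:83631846-83632145, strand minus): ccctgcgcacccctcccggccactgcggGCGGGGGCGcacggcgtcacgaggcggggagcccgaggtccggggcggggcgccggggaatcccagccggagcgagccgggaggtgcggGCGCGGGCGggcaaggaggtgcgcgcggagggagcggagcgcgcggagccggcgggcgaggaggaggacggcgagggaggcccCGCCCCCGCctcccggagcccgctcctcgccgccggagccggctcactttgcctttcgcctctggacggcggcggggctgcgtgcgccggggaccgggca
Both strands were searched and no motif overlapped another kind in these windows. RefSeq had promoters for 46 of the 71 genes, 13 higher and 33 lower in SCI. TGACGT was in 1 higher and 2 lower genes, beside 7.51% of all 32851 promoters. TGANTCA was in 3 higher and 3 lower genes (7.81% of all promoters) and GCGNGGGCG in 3 and 4 (5.55%). A gene can have several promoters here, and a match is letters only. Another Bdnf promoter, not shown, matched TGANTCA.

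Among the higher genes, Bdnf came first by the smallest pooled p. Bdnf (chromosome 2, 109674700 to 109727007 of GRCm38) had 69.9, 79.9, 83.4, 74.4 and 79.9 CPM in SCI mice. In sham mice it had 60.1, 62.2, 57.3, 61.6 and 59.1, and in naïve mice 52.2, 45.4, 43.8, 69.4 and 75.6. Every SCI mouse lay above all 5 sham mice, and only naïve 5 lay within the SCI range. The means were 77.5 ± 5.34 in SCI, 60.1 ± 1.96 in sham and 57.3 ± 14.4 in naïve mice (SD, n = 5 each), a log2 difference of 0.41 (SE 0.11) from the controls. Bdnf did not pass over all genes in the main fit (limma, adjusted p = 0.9999), in edgeR or in DESeq2. Of the alternatives run, it passed only with library quality weights (limma, adjusted p = 0.0297). These weights were low for naïve 4 (0.258) and naïve 5 (0.367), the controls with the most Bdnf, and also for naïve 1 (0.255) and sham 2 (0.217). The exons of Bdnf overlap Gm45346 on the opposite strand, and the strand setting of the counting is not given in the sources used here. Of 11 tested neurotrophin genes and receptors, Bdnf was the 1 higher at an unadjusted p under 0.05, and 0 were lower, beside 0.881% and 1.38% of all genes. The list's median log2 difference was -0.05.

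**Figure D1:**
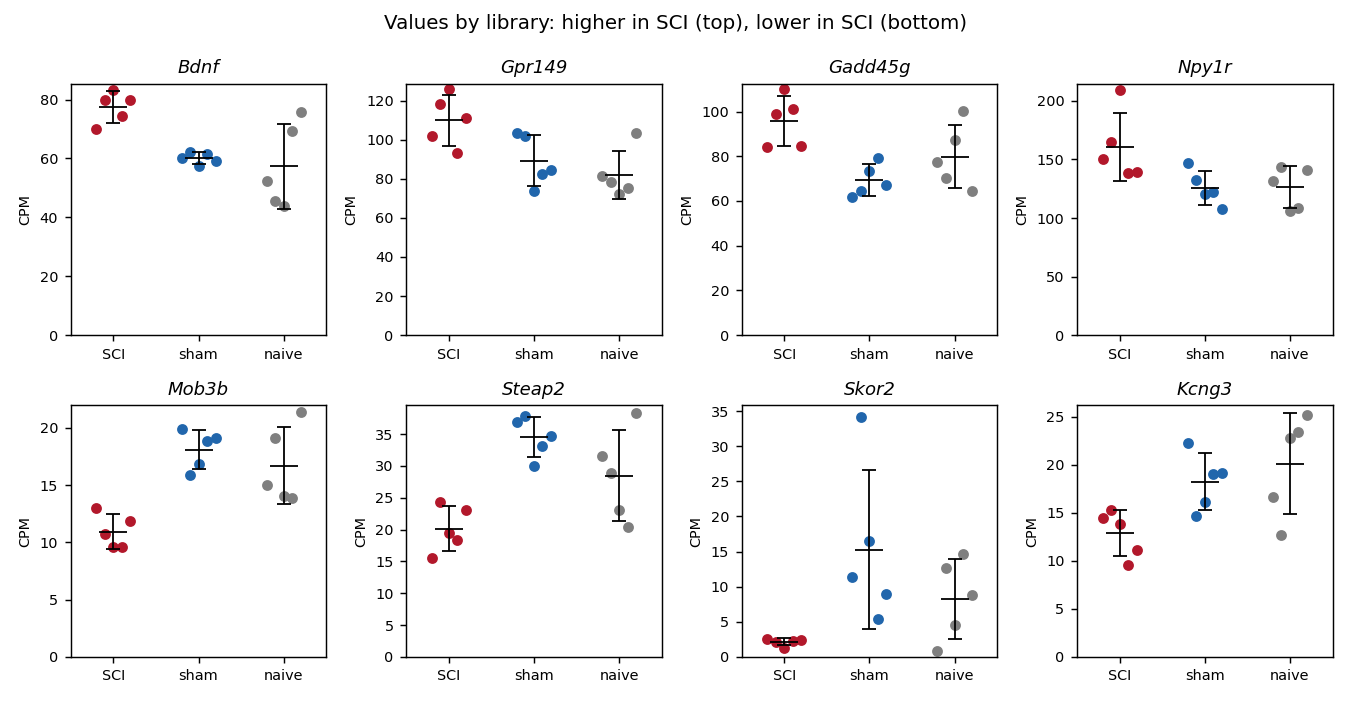
Values in CPM (vertical axis, from 0) of 8 genes in each library, with SCI mice in red, sham in blue and naïve in grey, and bars for the group mean ± SD of 5 mice. All 5 SCI values of Mob3b, 9.56 to 13.0, lie below all 10 controls, while the groups of the other 7 genes overlap in at least 1 library.

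Npy1r and Gpr149 are G protein-coupled receptors of small sensory neurons. Npy1r, which takes part in the inhibition of peptidergic nociceptors, had 150, 165, 210, 138 and 140 CPM in SCI mice, against 108 to 147 in sham and 106 to 144 in naïve mice. SCI 3 was the highest library, and SCI 4 and SCI 5 lay within the controls. The log2 difference was 0.34 (SE 0.11), and 0.24 without SCI 3. Gpr149, whose ligand is unknown, had 93.0 to 126 CPM in SCI mice, 73.8 to 104 in sham and 72.4 to 103 in naïve mice (log2 difference 0.36, SE 0.10). Of 22 tested inhibitory receptors, 2 were higher at an unadjusted p under 0.05, Npy1r and Htr1b, and 1, Adora1, was lower. Over all genes 0.881% were higher and 1.38% lower at that p.

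Gadd45g, a stress-induced regulator of growth and DNA demethylation, had 84.0, 98.8, 110, 101 and 84.4 CPM in SCI mice. All 5 lay above the sham mice, with 61.8 to 79.3, while naïve mice had 64.3 to 100. Procr, the endothelial protein C receptor, had 6.51 to 10.5 CPM in SCI mice, 2.85 to 7.97 in sham and 1.58 to 6.89 in naïve mice, a difference of 0.86 (SE 0.26), and is named after its values were seen. Flt1 was higher and Kdr lower at an unadjusted p under 0.05 among 9 endothelial markers, beside 0.881% and 1.38% of all genes. The summed level of these markers was 36.0 to 66.5 CPM in SCI mice, 44.9 to 60.3 in sham and 26.3 to 48.4 in naïve mice. The part of endothelial cells in the Procr values was not tested.

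The remaining higher genes with a mean of at least 10 had differences of 0.24 to 0.83. Larp6, which binds collagen mRNAs, had 59.4 to 73.2 CPM in SCI mice, 44.4 to 63.4 in sham and 45.1 to 64.5 in naïve mice. Capn9, a calpain protease, had 44.9 to 66.9 in SCI mice, 30.2 to 45.1 in sham and 26.6 to 52.6 in naïve mice. Serpinb1a, an inhibitor of neutrophil proteases, had 39.8 to 62.2 in SCI mice, 17.2 to 41.6 in sham and 11.2 to 60.7 in naïve mice. Its difference was 0.73 (SE 0.27), and its reads may be shared with close paralogs.

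Tgfb1i1, a focal adhesion adaptor, differed by 0.24 (SE 0.09), Tmem229b by 0.35 (SE 0.13), Palm3 by 0.31 (SE 0.12) and Arhgap36, an inhibitor of protein kinase A, by 0.52 (SE 0.20). Rnase4, a secreted ribonuclease, differed by 0.35 (SE 0.12), and its exons overlap those of Ang, as those of Palm3 overlap Il27ra. Sectm1b, a transmembrane immune ligand, differed by 0.83 (SE 0.29), with 6.63 to 23.7 CPM in SCI mice, 4.07 to 16.1 in sham and 4.39 to 12.0 in naïve mice. In each of these 6 genes the SCI range overlapped the controls.

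**Figure D2:**
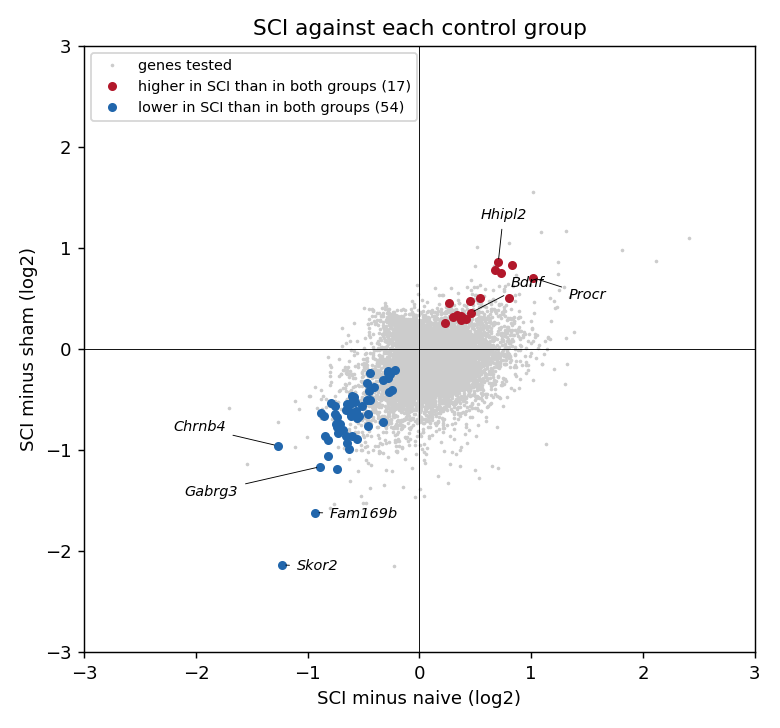
Log2 difference of SCI from naïve mice (horizontal axis) and from sham mice (vertical axis) for 16000 genes, in grey, with the 17 higher genes in red and the 54 lower in blue. Skor2 lies farthest out among the lower genes, at -1.23 and -2.14, and the colored points fill the corners because their values chose them.

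Among the lower genes, Mob3b was fully separated. Mob3b, a member of the MOB family of kinase regulators (chromosome 4, 34949074 to 35157484), had 13.0, 10.7, 9.56, 9.56 and 11.9 CPM in SCI mice. Sham mice had 15.9 to 19.9 and naïve mice 13.9 to 21.4, so no SCI value reached a control. The means were 10.9 ± 1.5 in SCI, 18.1 ± 1.68 in sham and 16.7 ± 3.37 in naïve mice (SD, n = 5 each), and the log2 difference of -0.62 (SE 0.14) stayed between -0.68 and -0.57 whichever library was left out.

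Steap2, a reductase of iron and copper, had 15.6, 24.3, 19.4, 18.3 and 23.0 CPM in SCI mice. It had 30.0 to 37.8 in sham and 20.5 to 38.4 in naïve mice, where naïve 3 and naïve 4 lay within the SCI range (log2 difference -0.61, SE 0.14). Nxpe2, of the neurexophilin and PC-esterase family, had 8.24 to 16 CPM in SCI mice, 16.1 to 31.7 in sham and 14.5 to 21.3 in naïve mice, a difference of -0.81 (SE 0.18).

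Skor2, a transcriptional corepressor named after its values were seen, had 2.55, 2.15, 1.32, 2.32 and 2.44 CPM in SCI mice. Sham mice had 11.4, 34.1, 16.5, 5.43 and 8.94, and naïve mice 0.791, 12.7, 4.55, 14.6 and 8.86. Naïve 1, with a level of 1 read, lay below the SCI mice and the other 9 controls above them. The log2 difference was -1.68 (SE 0.44), the largest of the 71, and -1.51 without sham 2. Fam169b, also named after its values were seen, had 0.659 to 5.25 CPM in SCI mice, 6.88 to 16.3 in sham and 3.80 to 7.14 in naïve mice (log2 difference -1.27, SE 0.29).

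Spry4 and Dusp5 are induced by ERK signaling and restrain it, Spry4 upstream of the kinase Raf and Dusp5 as a nuclear ERK phosphatase. Spry4 had 33.9, 37.0, 25.7, 38.2 and 23.0 CPM in SCI mice, 45.6 to 60.6 in sham and 34.0 to 45.4 in naïve mice. The SCI mice lay below all sham mice and overlapped naïve 1 and naïve 2, while the other 3 naïve mice lay above them. Dusp5 had 14.7, 30.3, 16.5, 20.9 and 20.6 CPM in SCI mice, 26.4 to 44.7 in sham and 24 to 36.5 in naïve mice, and only SCI 2 lay within the controls. The differences were -0.53 (SE 0.12) for Spry4 and -0.55 (SE 0.16) for Dusp5. Of 16 tested ERK feedback genes these 2, described because they are among the 71, were lower at an unadjusted p under 0.05 and 0 were higher, beside 1.38% and 0.881% of all genes. The list's median was -0.06.

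Several lower genes set the excitability of the membrane. Kcnab1, an auxiliary subunit of Kv1 potassium channels, had 49.8, 60.8, 29.0, 75.7 and 63.2 CPM in SCI mice, 91.0 to 109 in sham and 60.9 to 107 in naïve mice. All sham mice lay above the SCI mice, and the difference was -0.73 (SE 0.18), or -0.52 without SCI 3. Kcng3, a modifier subunit of Kv2 channels, had 14.4, 15.3, 13.8, 9.56 and 11.2 CPM in SCI mice, 14.6 to 22.3 in sham and 12.7 to 25.2 in naïve mice (difference -0.53, SE 0.17). Kcnk1, a two-pore leak channel, had 11.2 to 26.5 CPM in SCI mice, 22.3 to 37.8 in sham and 16.5 to 34.4 in naïve mice (difference -0.60, SE 0.21). Of 44 tested voltage-gated potassium channel genes, 1 was higher and 4 lower at an unadjusted p under 0.05, with a median of -0.05. Of 11 leak channels 0 were higher and 3 lower, with a median of -0.11. Over all genes 0.881% were higher and 1.38% lower at that p.

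Gabrg3, a subunit of GABA-A receptors, had 4.53, 5.49, 3.95, 7.23 and 10.5 CPM in SCI mice. Sham mice had 33.2, 4.47, 14.7, 17.6 and 16.3, and naïve mice 15, 11.7, 9.92, 8.04 and 17.2. Sham 2 lay among the SCI mice and sham 1 stood far above, and the difference was -1.03 (SE 0.32). Chrnb4, a nicotinic receptor subunit, had 2.64 to 15.5 CPM in SCI mice, 4.47 to 27.0 in sham and 7.03 to 27.4 in naïve mice, a difference of -1.11 (SE 0.37). Doc2b, a calcium sensor of vesicle release, had 3.30 to 7.75 CPM in SCI mice, 7.72 to 29.3 in sham and 5.79 to 14.1 in naïve mice, a difference of -0.94 (SE 0.28), or -0.78 without sham 1, and is named after its values were seen.

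Other lower genes belong to glia, adhesion or signaling. Drp2, a Schwann cell marker, had 123 to 186 CPM in SCI mice, 124 to 239 in sham and 180 to 228 in naïve mice (difference -0.40, SE 0.13). The summed level of 11 Schwann cell markers was 1850 to 2090 CPM in SCI mice, 1617 to 2116 in sham and 1651 to 2898 in naïve mice, Drp2 being 1 of them, and the part of Schwann cells in the Drp2 values was not tested. Sdk2, a synaptic adhesion protein, differed by -0.35 (SE 0.11) and Dscam, another, named after its values were seen, by -0.48 (SE 0.16). Ppp1r1a, an inhibitor of protein phosphatase 1, had 28.7 to 40.8 CPM in SCI mice, 39.1 to 48.0 in sham and 45.9 to 57.0 in naïve mice, a difference of -0.34 (SE 0.10).

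Abca6, a lipid transporter, differed by -0.32 (SE 0.09), Wipf3, an actin regulator whose exons overlap Scrn1, by -0.25 (SE 0.08), Mboat1, a phospholipid acyltransferase, by -0.70 (SE 0.20), Moxd1, a monooxygenase homolog, by -0.66 (SE 0.21) and the lincRNA Gm38901 by -0.49 (SE 0.15). Ifit3, an interferon-induced gene whose reads may be shared with a close copy, had 7.39 to 16.1 CPM in SCI mice, 11.4 to 17.7 in sham and 12.0 to 19.7 in naïve mice, a difference of -0.53 (SE 0.19). Of 36 tested interferon and antigen presentation genes it was the 1 lower at an unadjusted p under 0.05, beside 1.38% of all genes. SCI lay below both group means in 18 of the 36 and above both in 3, against 19.1% and 23.1% of all genes. The list's median was -0.15. Casz1, a zinc finger transcription factor, named after its values were seen, differed by -0.32 (SE 0.12), or -0.21 without SCI 3.

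The remaining members are given by their range. The 2 other higher genes had means of 1.44 to 1.49 CPM, and the 29 other lower genes, of which 7 had a mean of at least 10, had log2 differences of -0.96 to -0.22. Among these, named after their values were seen, are Rgs8, a brake on G protein signaling that differed by -0.28 (SE 0.11), and Nmur1, a neuromedin U receptor, which differed by -0.76 (SE 0.25).

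A rank description that needs no model found 5 genes whose SCI values lay outside all 10 controls (0.0312% of the genes tested), 2 above (0.0125%) and 3 below (0.0188%). Below them were Mob3b, Fmnl1 and the sense intronic RNA Gm42717, and above them Bbip1 and Hhipl2. Fmnl1, a formin that builds actin filaments, had 146, 146, 153, 161 and 151 CPM in SCI mice, 161 to 177 in sham and 173 to 205 in naïve mice. Its highest SCI value and its lowest sham value both round to 161, and the log2 difference was -0.22 (SE 0.06).

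Bbip1, a small subunit of the complex that traffics membrane proteins to cilia, had 42.2 to 45.3 CPM in SCI mice, 35.8 to 41.1 in sham and 24.8 to 38.9 in naïve mice, a difference of 0.25 (SE 0.10), and its exons overlap Shoc2 on the opposite strand. Hhipl2, named after its values were seen, as Gm42717 is, had 1.55 to 2.64 CPM in SCI mice, 0 to 1.28 in sham and 0 to 1.30 in naïve mice, from 73 reads in all. Gm42717 had 0.258 to 0.698 CPM in SCI mice, 0.813 to 2.28 in sham and 0.731 to 4.13 in naïve mice, from 83 reads. Each of the 5 had the smallest p that 5 against 10 mice allow, 0.000666 by a two-sided exact permutation test, and an adjusted p of 1. Full separation fixes this p, so it adds no evidence beyond the separation that chose the genes. By chance alone a fraction of about 0.000666 of genes would separate, and the 0.0312% found is a smaller share.

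The study lists 19 channels and receptors, which it chose on these samples, so their counts are no independent evidence of direction. All 19 were tested, 1 was higher and 13 lower at an unadjusted p under 0.05, beside 0.881% and 1.38% of all genes, and the median log2 difference was -0.45. SCI lay below both group means in 16 of them, against 19.1% of all genes. Gabrg3, Kcng3 and Kcnk1 differed from both control groups.

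Scn3a, a sodium channel, had 17.5 to 23.6 CPM in SCI mice, 27.6 to 41.9 in sham and 22.3 to 31.1 in naïve mice (difference -0.45, SE 0.13). Piezo2, the touch channel, had 359 to 537 CPM in SCI mice, 478 to 644 in sham and 479 to 585 in naïve mice (difference -0.27, SE 0.10). Kcnn3, a calcium-activated channel, differed by -0.51 (SE 0.17), the leak channels Kcnk13 and Kcnk18 by -0.52 (SE 0.19, or -0.33 without SCI 3) and -0.46 (SE 0.20), Kcnj11, an inward rectifier, by -0.69 (SE 0.30) and Trpc4 by -0.37 (SE 0.17). Of the 19, Gria4, an AMPA receptor subunit, was the 1 higher, with 116 to 147 CPM in SCI mice, 111 to 124 in sham and 91.0 to 134 in naïve mice (difference 0.21, SE 0.09).

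**Figure D3:**
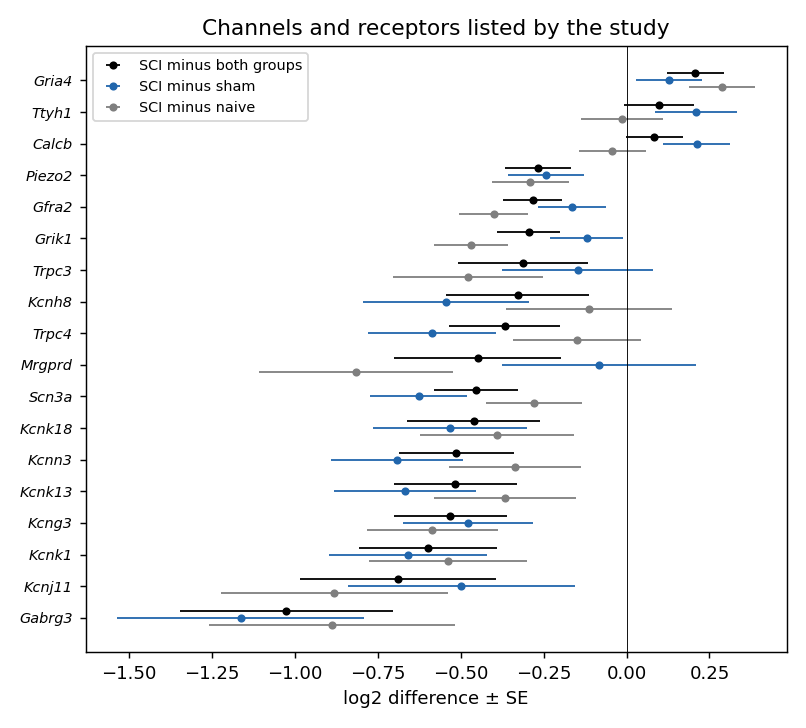
Log2 difference ± SE (horizontal axis) of SCI mice from both control groups in black, from sham mice in blue and from naïve mice in grey, for 18 of the 19 channels and receptors listed by the study. Gria4 lies at 0.21 in black and Gabrg3 lowest at -1.03.

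The 2 adenylyl cyclases that the study names, enzymes that make cyclic AMP, lay on opposite sides. Adcy1 had 48.6, 49.4, 30.0, 33.6 and 65.6 CPM in SCI mice, 72.8 to 97.2 in sham and 43.4 to 73.7 in naïve mice, so SCI and naïve mice overlapped and the difference came to -0.90 from sham and -0.31 from naïve mice. Adcy2 had 136 to 150 CPM in SCI mice, 131 to 144 in sham and 102 to 129 in naïve mice, with differences of 0.04 from sham and 0.26 from naïve mice. The study's 25 synaptogenesis genes were chosen on these samples too. Of them, 4 were higher and 2 lower at an unadjusted p under 0.05, beside 0.881% and 1.38% of all genes, with a median of 0.10. Gosr2, a Golgi SNARE, was among the higher, with 106 to 125 CPM in SCI mice, 96.2 to 108 in sham and 96.8 to 109 in naïve mice.

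The study's 27 transcription factors were also chosen on these samples, so their counts are no independent evidence. Of them, 2 were higher and 1 lower at an unadjusted p under 0.05, beside 0.881% and 1.38% of all genes. Nr3c1, the glucocorticoid receptor, had 135 to 163 CPM in SCI mice, 123 to 139 in sham and 112 to 147 in naïve mice (difference 0.18, SE 0.07). Meis3 had 82.6 to 89.9 in SCI mice, 74.0 to 86.7 in sham and 72.4 to 81.4 in naïve mice (difference 0.15, SE 0.06). Tbx3, a T-box repressor, had 15.3 to 23.9 CPM in SCI mice, 23.9 to 49.6 in sham and 16.6 to 28.7 in naïve mice (difference -0.57, SE 0.18).

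Of 26 tested genes of axon injury and regeneration, 5 were higher at an unadjusted p under 0.05 (Atf3, Gal, Nts, Gadd45a and Csf1) and 0 lower, beside 0.881% and 1.38% of all genes, with a median of 0.25, beside 0.02 over all genes. SCI lay above both group means in 18 of them, against 23.1% of all genes, and below both in 1, but none of the 26 differed from both control groups at that p. Atf3 had 112, 156, 169, 108 and 134 CPM in SCI mice, 99.1, 77.2, 104, 101 and 82.4 in sham mice and 92.5, 118, 111, 181 and 95.6 in naïve mice. All SCI mice lay above the sham mice, and naïve 4 lay above all SCI mice. The difference was 0.53 from sham and 0.21 from naïve mice.

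Gal, the neuropeptide galanin, had 41.0 to 67.2 CPM in SCI mice, 35.8 to 47.2 in sham and 32.4 to 54.6 in naïve mice (difference 0.30, SE 0.12), or 0.20 without SCI 3. Gadd45a had 24.3 to 31.5 CPM in SCI mice, 23.2 to 28.9 in sham and 17.4 to 24 in naïve mice. Csf1, which recruits macrophages and microglia, had 75.4 to 94.8 in SCI mice, 56.9 to 86.9 in sham and 55.5 to 75.6 in naïve mice. SCI mice overlapped both control groups for Gal and Csf1, whereas for Gadd45a they overlapped sham mice and lay above all 5 naïve mice.

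Nts, the precursor of neurotensin, had 6.79, 25.5, 27.0, 14.5 and 30.7 CPM in SCI mice, 0.813 to 17.3 in sham and 3.95 to 25.0 in naïve mice. Sprr1a and Ecel1, both induced after axotomy and named after their values were seen, varied widely within groups. Sprr1a had 1.13 to 57.6 CPM in SCI mice, 0 to 42.5 in sham and 0 to 22.7 in naïve mice. Ecel1 had 19.9 to 52.1 CPM in SCI mice, 0 to 45.1 in sham and 3.16 to 29.2 in naïve mice, and its difference of 1.24 was 0.76 without sham 2, in which both genes stood at 0. Sez6l, a synaptic protein that the study labels, had 13.9 to 54.0 CPM in SCI mice, 1.63 to 48.0 in sham and 0.413 to 11.4 in naïve mice, a difference of 1.49 (SE 0.58) with an exact permutation p of 0.0433, and 1.17 without sham 2.

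**Figure D4:**
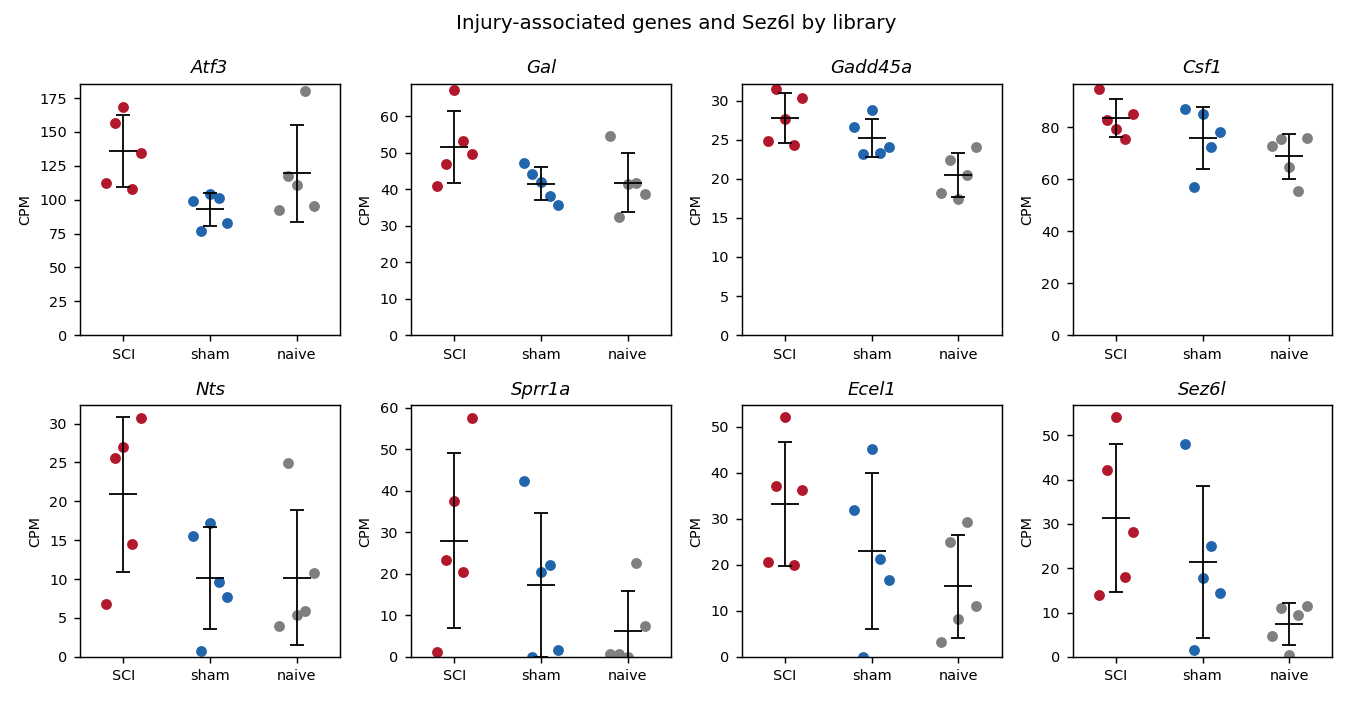
Values in CPM (vertical axis, from 0) of 8 genes in each library, SCI in red, sham in blue and naïve in grey, with bars for the mean ± SD of 5 mice, the lower bar ending at the axis where it would pass 0. SCI mice overlap sham or naïve mice in every gene shown, but lie above all sham mice for Atf3 and above all naïve mice for Gadd45a and Sez6l. Sprr1a spans 1.13 to 57.6 within SCI mice.

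Markers of other cells bear on which genes can be read. The C-LTMR markers, of unmyelinated touch neurons, include Piezo2 and Gfra2, the 2 of 6 tested that were lower at an unadjusted p under 0.05, beside 1.38% of all genes. The summed level of the C-LTMR markers was 650 to 1015 CPM in SCI mice, 905 to 1195 in sham and 924 to 1204 in naïve mice. Most of this sum is Piezo2 and Gfra2, with 444 and 159 of 787 CPM in SCI 1 and 485 and 181 of 964 in sham 1. The sum therefore largely repeats these genes. Gfra2, the neurturin receptor, had 131 to 192 CPM in SCI mice, 164 to 207 in sham and 192 to 251 in naïve mice (difference -0.28, SE 0.09). Of 14 non-peptidergic markers 3 were lower at an unadjusted p under 0.05, Gfra2, Grik1 and Mrgprb5, and 0 higher, beside 1.38% and 0.881% of all genes (median -0.26). SCI lay below both group means in 10 of the 14 and above both in 0, against 19.1% and 23.1% of all genes. Grik1, a kainate receptor subunit, differed by -0.47 from naïve and -0.12 from sham mice, and Mrgprb5, a Mas-related receptor with close copies, by -1.70 from naïve and -0.58 from sham mice. The part of cell composition in these values was not tested.

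Satellite glia markers, Fasn and Hmgcs1 among them, summed to 3477 to 4178 CPM in SCI mice, 2962 to 4030 in sham and 2868 to 5274 in naïve mice. Macrophage markers summed to 22.6 to 140 CPM in SCI mice, 19.1 to 204 in sham and 27.1 to 250 in naïve mice. Of 13 satellite glia and 15 macrophage markers 0 passed an unadjusted p under 0.05 in limma, beside 2.26% of all genes. Timp1, a protease inhibitor, had 2.97 to 6.97 CPM in SCI mice, 1.22 to 4.71 in sham and 0 to 2.89 in naïve mice, and Ccl2, a chemokine, 6.59 to 12.6 in SCI mice, 5.97 to 8.15 in sham and 2.6 to 9.14 in naïve mice. Both had a higher pooled mean, by 0.95 (SE 0.32) and 0.59 (SE 0.22) on the log2 scale.

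Several pathways had no member at an unadjusted p under 0.05 in limma between SCI mice and the pooled controls, beside 2.26% of all genes. These were 28 immediate early genes, 38 genes of the unfolded protein and integrated stress response, 20 heat shock genes, 19 clock genes, 76 ribosomal protein genes, 74 respiratory chain genes, 32 genes of cholesterol and fatty acid synthesis and 22 of glycolysis. Their medians lay between -0.06 and 0.04, beside 0.02 over all genes. At that share of all genes, short lists often hold no such member. None of their members passed after adjustment in edgeR or DESeq2 either, but these tools passed only 0 and 3 genes in all.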

How the data were processed

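RNA of backlabeled, sorted neurons from 15 mice was sequenced, 1 library per mouse. The authors aligned 75-base single-end reads to mm10 with HISAT2 and counted them with HTSeq, and the deposited signal values are named RPKM in the header. Each value in a library equalled a whole number of steps (0 exceptions, at a tolerance of 1e-06), so reads were recovered and the values are called CPM. Of 54232 gene lines, 27 named by a number (at most 0.21% of a library's reads) and 97 repeated symbols were left out.

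Values were tested as log2(CPM + 1), so fold changes of low genes are understated, in 16000 genes whose mean was 1 or more, using limma 3.58.1 (R 4.3.3), fitting a mean for SCI, sham and naïve and a variance trend. The pooled contrast was SCI minus the mean of sham and naïve, with p adjusted by the Benjamini-Hochberg method at 0.05. Single genes were also compared by exact permutation (two-sided, 5 against 10 mice). edgeR 4.0.16 and DESeq2 1.42.0 ran on recovered reads as alternatives. The fits were tested on simulated data. Gene models came from GENCODE M21 and promoters from RefSeq.

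The members and gene lists were chosen with earlier results of these data known. The rule for named genes takes genes that pass, up to 15 each way with a mean of at least 10 that differ from both groups, separated genes, genes the study names and leading list members. Genes outside it are marked as named after their values were seen. Libraries with the same replicate number come from different mice. No batch is given for them in the sources used here, so the numbers were used as pairs in 1 alternative only. Alternatives covered pseudocounts, filters, depth, scaling, the tool, weights and leaving out each library. 1 channel of the study's list is not reported here.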

Additional observations from a re-analysis of the deposited data

Results flagged for a closer look

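The values of 71 genes were screened in 3 groups each. These are 40 of the genes that differed from both control groups and 31 others taken from the lists or separated between groups. Of 213 groups of 5 mice, 12 held a mouse whose distance to its nearest neighbour took up over 0.71 of the group's range. Chance gives about 1 in 20 such groups. Among SCI mice this was Tgfb1i1, at 135.4 CPM in SCI 3, with the next at 111.6. Among sham mice, sham 1 had 16.33 CPM of Fam169b (next 8.943), 29.26 of Doc2b (next 10.99), 35.79 of Bbip1 (next 40.25) and 26.56 of Kcnk18 (next 21.19). Sham 2, the shallowest sham library, had 6.505 CPM of Mboat1 (next 11.38) and 644.4 of Piezo2 (next 514.7). Sham 4 had 130.8 CPM of Adcy2 (next 140.5) and 36.59 of Kcnn3 (next 52.6). Among naïve mice, naïve 3 had 4.135 CPM of Gm42717 (next 1.581), and naïve 4 had 102.3 of Adcy2 (next 121.6) and 180.5 of Atf3 (next 117.8).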

How the results depend on the processing

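The count of genes that passed between SCI mice and the pooled controls was 0 in limma, and 0 whichever library was left out, against 3 with DESeq2 and 2 with library quality weights (Bdnf and Skor2, limma, adjusted p = 0.0297 and 0.0325). The 71 genes that differed from both groups, 17 higher and 54 lower, became 200 with no filter on low values (139 higher, 61 lower), 42 at a mean of at least 10, 124 with a depth term (48 and 76), 127 with edgeR (45 and 82), 126 with DESeq2 (29 and 97), 387 with library quality weights and 187 without naïve 1 and naïve 4, chosen after seeing the data. Of the 71, 47 stayed in the list with a depth term, 47 with edgeR, 44 with DESeq2, 52 with weights, 46 without naïve 1 and naïve 4, and 49 with median-ratio rescaling, which listed 97 genes (27 and 70). Leaving out 1 library gave 33 (SCI 3) to 102 (sham 2). The 5 separated genes became 3 at a mean of at least 10, 32 without naïve 1 and naïve 4, and 5 (sham 5) to 18 (SCI 4) with 1 library left out, where fewer values make separation easier. With a replicate block the list held 61 genes, 52 of them among the 71, and 0 passed between SCI mice and the pooled controls. Same-numbered mice were not treated as pairs in the main fit. Of 15 such pairs, 2 correlated above 0.1 (range -0.221 to 0.219), sham 3 with naïve 3 and sham 5 with naïve 5. Whether same-numbered mice shared a batch was not tested. The causes of the other changes were not tested. Over 1908 alternatives run for single genes, 40 of the 71 and 31 others, the sign of the difference was kept in all. The alternatives were not run for the other 31 of the 71. They reuse the same libraries, and most of these genes were chosen on their values, so kept signs are no separate support. Depth limits the low genes, such as Hhipl2 and Gm42717, with 73 and 83 reads over all libraries.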
